A study of Marmota monax with 20 samples.

Results

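A set of 65 woodchuck genes was high in both liver and kidney and lower in spleen, heart, lung, pancreas and thymus. The set was selected on the counts of 20 RNA-seq libraries, out of 30973 genes of the Monax4B annotation. Each count was divided by a size factor of its library, the median over 16970 genes found in every library of the ratio to the geometric mean of the gene. The result is called the normalised count here. A gene was kept when its score, the lowest normalised count in liver and kidney divided by the highest in the remaining libraries plus 5, was at least 3. Its lowest normalised count in liver and kidney also had to be at least 200, and the ratio of mean liver to mean kidney had to lie from 0.25 to 4. The levels in these tissues, and the difference between liver and kidney, therefore describe how the genes were chosen, and no test of them is read as a result.

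The libraries came from adult Eastern woodchucks (Marmota monax) negative for woodchuck hepatitis virus (WHV), a relative of the human hepatitis B virus. No treatment is given for any animal. Liver was available from the females F6849, F9150 and F6852 and from the males M4046, M4075 and M4091, so that n = 6. These animals, F6852 excepted, also gave kidney and spleen, with n = 5 for each. Heart and lung of F6849 and pancreas and thymus of F9150 gave 1 library each and have no replicate. The sex of an animal is read from the first letter of its name. All libraries were made from polyA RNA of whole tissue, in which fewer cells of a type and less RNA per cell cannot be told apart. The livers had 82874390 to 140252555 counts, the kidneys 63682684 to 107167963 and the other libraries 59487004 to 123267969.

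Liver and kidney have a good deal of their chemistry in common. Hepatocytes and the cells of the proximal tubule both make glucose from amino acids and lactate, break down amino acids and fatty acids, conjugate foreign compounds and carry organic ions across their membranes, and both are known to depend on transcription factors of the HNF1 and HNF4 families. Spleen and thymus are lymphoid organs, and heart, lung and pancreas have other main tasks. The gene identifiers of the table are paired with no names, and 0 of the 30973 identifiers occur in the RefSeq gene table of the species used here. Genes are thus given by identifier, without position, sequence or function, and the tissue labels could not be compared with marker genes. The table also gives no gene lengths, so that levels are compared between libraries and not between genes.

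The score of the 65 genes ran from 3.05 to 942 with a median of 9.47. It was 100 or more for 9 genes, 10 to 100 for 23 and 3 to 10 for 33. Among the 9 genes of the first class the highest normalised count outside liver and kidney was between 2.32 and 66.2. It reached 3878 among the 23 genes of the second class and 13722 among the 33 of the last. The set therefore joins genes that were nearly silent elsewhere with genes that had a substantial level in another tissue.

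**Figure D1:**
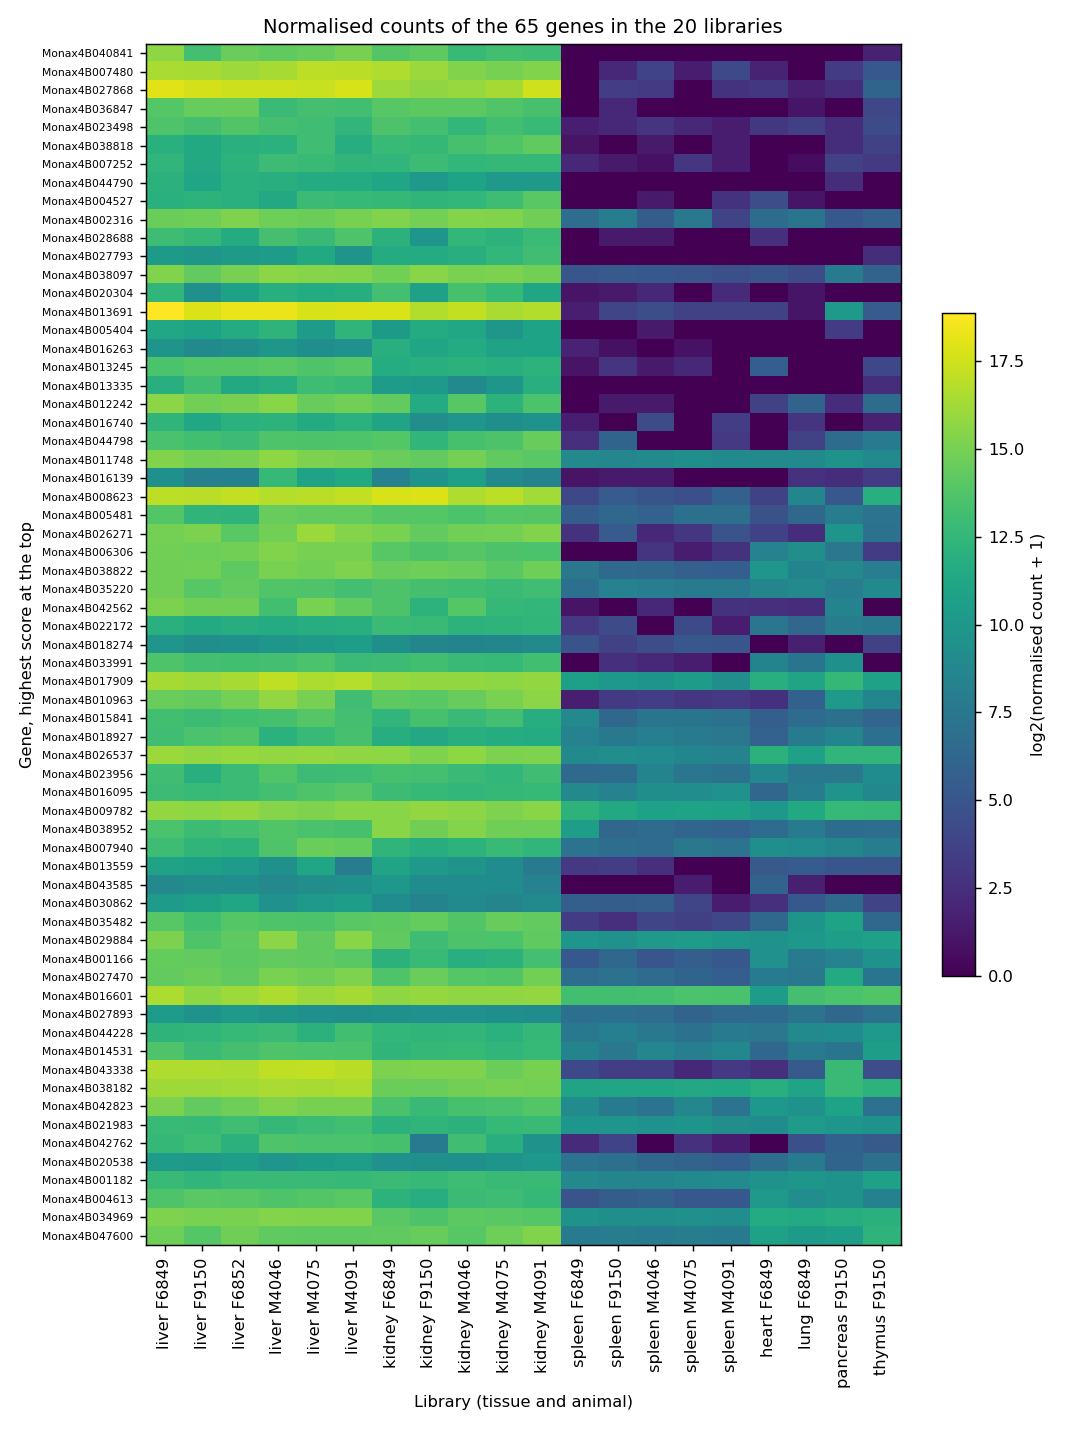
Normalised counts of the 65 genes (rows, ordered by score) in the 20 libraries (columns, tissue and animal), coloured as log2(normalised count + 1). In every row the 11 liver and kidney columns on the left are brighter than the 9 other columns, as the rule requires. All rows share 1 colour scale, so genes of low level have an intermediate colour in liver and kidney. The 9 other columns tend from dark at the top to intermediate levels at the bottom, where the score falls to 3.05. Some of the lower rows are dark there too.

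The gene with the highest score was Monax4B040841. Its normalised count in the livers was 9683 at the lowest, 23415 at the median and 52527 at the highest. In the kidneys it was 14550 (F6849), 18770 (F9150), 6899 (M4046), 9221 (M4075) and 8329 (M4091). Liver and kidney overlapped, and the gene had 0 counts in 8 of the other 9 libraries and 2 counts in the thymus; a count of 0 allows up to 3 counts. Monax4B007480 had the next score, 824. Its livers ran from 71785 over a median of 87854 to 128135, and its kidneys were at 102296, 67670, 40337, 32811 and 39053 in the same order of animals. Its highest level elsewhere was 34.8 in the thymus, from 30 counts. Both genes were far above the other tissues in every liver and kidney.

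At the other end of the set, Monax4B047600 with a score of 3.05 and Monax4B034969 with 3.07 were the last genes kept. Monax4B047600 had a normalised count of at least 15342 in liver and kidney and of 5018 in the thymus. Monax4B034969 had at least 12230 in liver and kidney and 3985 in the thymus. Just outside, Monax4B036144 had a score of 2.98 and Monax4B044869 one of 2.95. The limit on the ratio removed 45 genes that passed the other limits, 40 with liver over 4 times kidney and 5 with kidney over 4 times liver. Of these Monax4B021988 (score 430, ratio 4.44) and Monax4B012361 (score 196, ratio 20.0) had the highest scores. The limit on the level removed 9 genes.

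**Figure D2:**
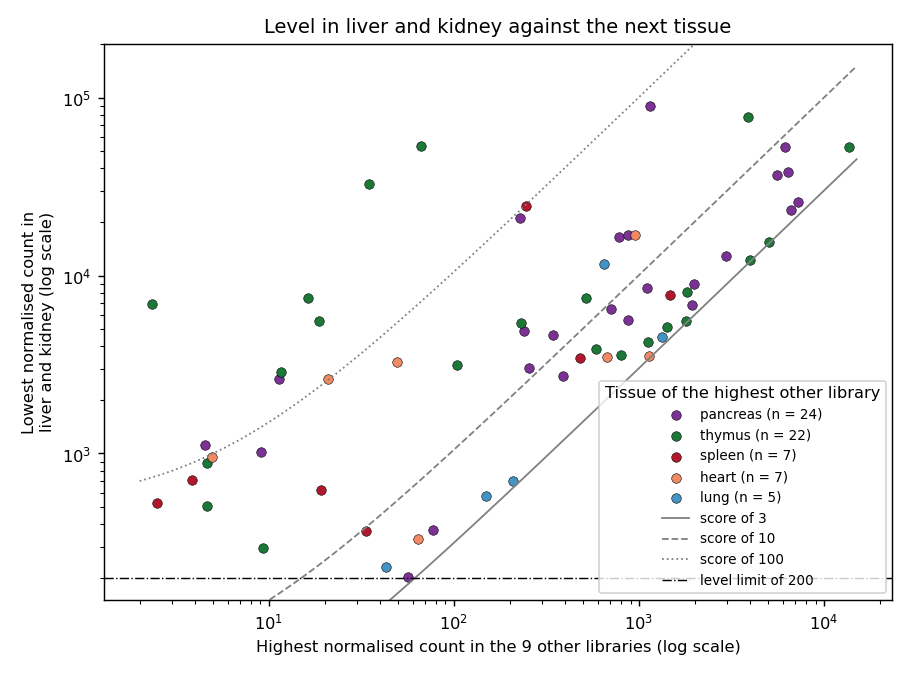
Lowest normalised count in the 11 liver and kidney libraries (y axis, log scale) against the highest in the 9 other libraries (x axis, log scale), 1 point per gene, coloured by the tissue of that highest library. The grey lines mark scores of 3, 10 and 100 and the dash-dotted line the level of 200; all points lie above the line of 3 because the genes were chosen so, and purple (pancreas, 24 genes) and green (thymus, 22 genes) points are the most frequent.

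The tissue that came next after liver and kidney was the pancreas for 24 genes, the thymus for 22, spleen and heart for 7 each and the lung for 5. This order depends on the scale. By CPM, in which a count is scaled by the library total alone, the thymus came next for 24 genes, spleen for 14, lung for 10, pancreas for 9 and heart for 8. The pancreas library had the smallest size factor, 0.443, with a total of 83879613 counts, and pancreas and thymus each rest on 1 library of 1 animal. Without the pancreas library the rule kept 98 genes, all 65 among them, and leaving out any other single library gave 64 to 78.

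No gene of the set had 0 counts in all 9 other libraries. Of the 65 genes 27 had 0 counts in at least 1 of them, and 31 had at least 10 counts in every one. In the spleens 23 to 29 of the genes had fewer than 10 counts, against 16 in the thymus, 20 in the lung, 21 in the pancreas and 23 in the heart. A level of at least 10% of the lowest liver or kidney library was reached by 24 genes in pancreas, 17 in thymus, 15 in heart, 13 in lung and 6 to 10 in the spleens. By normalised count the spleens thus had the fewest genes at or above this level. It was not counted by CPM, which changed the order of the tissues above.

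Together the 65 genes held 1.19% ± 0.0964 (SD, n = 6) of the counts of a liver library, between 1.08% and 1.34%. In kidney they held 2.15% ± 0.230 (SD, n = 5), with 2.50% in F6849, 2.14% in F9150, 2.08% in M4046, 1.86% in M4075 and 2.16% in M4091. In spleen the share was 0.0419% ± 0.00187 (SD, n = 5), and the single libraries had 0.0739% (thymus), 0.0608% (lung), 0.0369% (pancreas) and 0.0346% (heart). The 95% Wilson interval of each share lies within 0.00358 percentage points, which covers counting error only. By share all kidneys lay above all livers. The summed normalised count gave the opposite order, with 1681560 to 2249010 in the livers and 1112780 to 1485100 in the kidneys. Between 5 and 8 of the genes were among the 100 most abundant of a kidney library and 1 or 2 among those of a liver library. With the 10 most abundant genes of each library left out of the total, the median share was 1.53% in liver and 1.84% in kidney.

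**Figure D3:**
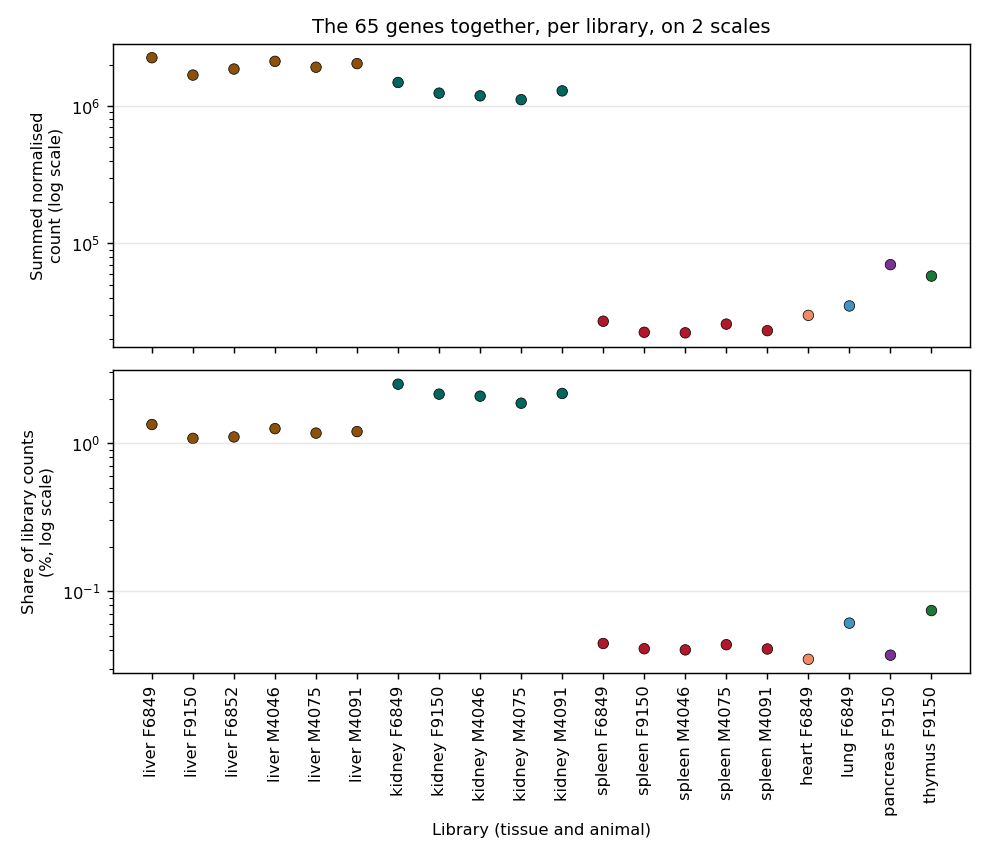
The 65 genes together in each of the 20 libraries, as the summed normalised count (upper panel, log scale) and as the share of all counts of the library in percent (lower panel, log scale), 1 point per library, coloured by tissue. The 6 livers lie above the 5 kidneys in the upper panel and below them in the lower, and all other libraries are at 0.0739% or less.

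Whether the genes were higher in liver or in kidney likewise depended on the scale. By normalised count the mean of liver was above that of kidney for 49 of the 65 genes (75.4%), and by CPM for 11. The median ratio of liver to kidney was 1.44 by normalised count, with a range of 0.288 to 3.86, and 0.508 by CPM. By normalised count 38 genes were within 2-fold of equality, 22 were more than 2-fold higher in liver and 5 more than 2-fold higher in kidney. In the fit of edgeR's quasi-likelihood test over liver, kidney and spleen with TMM factors, which correct for the composition of the libraries, 31 genes were past a false discovery rate of 0.05 on the side of liver (47.7%, against 32.1% of all 20764 genes tested). On the side of kidney were 3 (4.62%, against 30.9% of all genes tested). The rule used the levels in both organs and limited their ratio, so these counts are not a test of the genes and nothing is read from them. With library totals alone they were 0 and 38, and the share of all genes was not counted for that fit. The median log2 difference, liver minus kidney, was 0.58 for the set and 0.03 for all genes with TMM factors, and -0.98 and -1.52 with library totals. These medians too come from levels that the rule used, and nothing is read from them.

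Within the 5 animals that gave both organs, liver was above kidney in every animal for 31 genes and in none for 8 by normalised count. By CPM these numbers were 1 and 41. For 17 genes every liver was above every kidney by normalised count, and for 4 genes every kidney was above every liver. Such counts were not made over all genes, and the rule used these levels. They are a description, and nothing is read from them.

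Monax4B016740 had the highest ratio, 3.86. Its livers ran from 2492 over a median of 4240 to 5130, and its kidneys were at 2042 (F6849), 624 (F9150), 963 (M4046), 663 (M4075) and 824 (M4091). All livers were above all kidneys, with a log2 difference of 2.00 ± 0.54 (SE of the edgeR fit). Monax4B013245 followed with a ratio of 3.68. Its livers had a lowest normalised count of 11635, a median of 15119 and a highest of 17160, and its kidneys had 3256, 3879, 4362, 3884 and 4571. The groups did not overlap here either, and the log2 difference was 1.94 ± 0.25 (SE). With library totals alone the differences were 0.44 for Monax4B016740 and 0.38 for Monax4B013245. The genes were picked for this ratio, and its values are a description.

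Monax4B016263 had the lowest ratio, 0.288. Its livers ran from 528 over a median of 723 to 1020, and its kidneys were at 3823, 2131, 3101, 1890 and 2009 from F6849 to M4091. Every kidney was above every liver, with a log2 difference of -1.74 ± 0.29 (SE). Monax4B027793 had a ratio of 0.297, with livers of 890 to 2860 around a median of 1256 and kidneys of 3162, 3118, 3722, 5718 and 8601. Its log2 difference was -1.69 ± 0.35 (SE), and again the groups did not overlap. With library totals alone the differences were -3.30 and -3.24. These genes too were picked for their ratio.

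**Figure D4:**
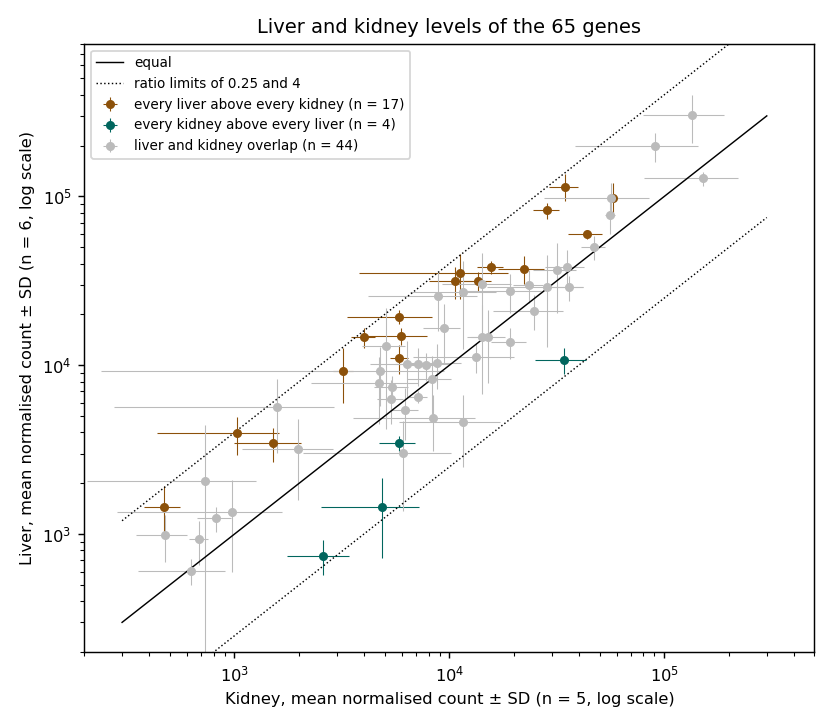
Mean normalised count in liver (y axis, log scale, n = 6) against kidney (x axis, log scale, n = 5) for the 65 genes, with bars of 1 SD in each tissue; a bar that reaches the edge continues beyond it. In brown points (17 genes) every liver was above every kidney and in green points (4 genes) every kidney above every liver, in grey points the organs overlap, and the dotted lines are the limits of 0.25 and 4 between which the genes were chosen.

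The highest mean over the liver and kidney libraries was that of Monax4B013691. Its livers ran from 216298 over a median of 281324 to 476748, and its kidneys were at 226384 (F6849), 106753 (F9150), 143912 (M4046), 89411 (M4075) and 106939 (M4091). The kidney of F6849 was within the range of the livers, and the liver of the same animal was the highest liver. Outside both organs the gene reached 1143 in the pancreas and at most 41.8 in any other library. Monax4B027868 had the next highest mean, with livers of 155076 to 262410 around a median of 192477. Its kidneys were at 70505, 53332, 64824, 82762 and 183302, the last, M4091, lying among the livers. The mean of liver was 2.25 times that of kidney for Monax4B013691 and 2.18 times for Monax4B027868, but by CPM the order turned, with ratios of 0.794 and 0.777.

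Other genes had the smallest span by normalised count. Monax4B001182 had a normalised count of 5575 to 6899 in the livers, with a median of 6712. In the kidneys it had 7287, 6265, 8156, 7033 and 7084, so that the highest of the 11 libraries was 1.46 times the lowest. Its highest level elsewhere was 1797 in the thymus. Monax4B009782 spanned 1.56-fold, with livers of 38140 to 59660 around a median of 50126. Its female livers were at 58374, 53010 and 59660 and its male livers at 45245, 38140 and 47242. The sexes did not overlap there (edgeR, adjusted p = 0.189). Its kidneys were at 46180, 55969, 47940, 38601 and 46832, and the pancreas had 6399. For both genes liver and kidney overlapped, and the ratios of mean liver to mean kidney were 0.907 and 1.07. By CPM these ratios were 0.320 and 0.377.

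The rule set no limit on the spread between animals itself, but it used the lowest library and the mean of each organ, on which the spread bears. The SD of the log2 normalised count over the livers had a median of 0.37 for the set, against 0.26 for the 10742 genes with a lowest normalised count of at least 200 in liver and kidney. Over the kidneys the medians were 0.36 and 0.19. The SD was above that of the median gene at this level for 51 of the 65 genes in liver (78.5%) and for 55 in kidney (84.6%). It exceeded 1 for 5 genes in liver (7.69%, against 1.90% of genes at this level) and for 6 in kidney (9.23%, against 1.14%). These are descriptions with no test. The highest liver was between 1.18 and 21.6 times the lowest (median 2.00), and the highest kidney between 1.11 and 52.8 times the lowest (median 1.92).

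The largest SD over the livers was that of Monax4B016139, whose highest liver was 21.6 times the lowest. Its livers were at 711 (F6849), 296 (F9150), 310 (F6852), 6386 (M4046), 1836 (M4075) and 2861 (M4091). All male livers were above all female livers. Its kidneys, at 328, 869, 1581, 532 and 341 from F6849 to M4091, were mixed between the sexes. Monax4B013559 had the next largest SD, 1.20 on the log2 scale, with livers of 1881, 1645, 1340, 714, 2264 and 244 in the same order of animals. Its kidneys were at 2053, 1124, 881, 583 and 230, and M4091 was the lowest animal in both organs.

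The largest SD over the kidneys was that of Monax4B042762, 2.42 on the log2 scale. Its kidneys were at 10666 (F6849), 202 (F9150), 8441 (M4046), 3731 (M4075) and 839 (M4091). The kidney of F9150 was barely above the limit of 200, while its livers ran from 4506 over a median of 9945 to 13293 and F9150 was not the lowest of them with 8289. Monax4B020304, with an SD of 1.20, had kidneys of 9618, 1731, 10382, 6524 and 2251. Its livers were at 5502 (F6849), 712 (F9150), 1771 (F6852), 3540 (M4046), 3167 (M4075) and 3401 (M4091), and F9150 was the lowest animal in liver and in kidney.

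Liver and kidney of an animal were compared over the whole set, as the correlation across the 65 genes of the deviations from the tissue means on the log2 scale. In the 5 animals with both organs, r between a liver and the kidney of the same animal was 0.0380 to 0.425, with a median of 0.303. Between organs of different animals it was -0.216 to 0.103, with a median of -0.0630 over 20 pairs. The correlation is across genes, which are not independent replicates, and the deviations within a tissue sum to 0, which moves the pairs of different animals below 0. It is given as a description.

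The sex of the animals played no part in the choice of the genes, so females and males could be tested within each organ. In liver 0 of the 65 genes passed (edgeR's quasi-likelihood test, false discovery rate of 0.05, Benjamini-Hochberg over all genes), against 1.27% of the 17547 genes tested. The lowest adjusted p in the set was 0.0512. At an unadjusted p under 0.05 there were 15 genes (23.1%, against 18.3% of all genes), 5 higher in females and 10 in males, and DESeq2 called 8 (12.3%, against 8.76%), 2 higher in females and 6 in males. Neither share was tested against that of all genes. The 3 female livers were sequenced in lanes L001, L002 and L002 and the 3 male livers in L004, L008 and L005, so that sex and lane cannot be told apart.

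The lowest p in liver was that of Monax4B036847. Its female livers were at 15394 (F6849), 23016 (F9150) and 22292 (F6852) and its male livers at 7493 (M4046), 10314 (M4075) and 9149.6 (M4091). The sexes did not overlap, and the log2 difference, female minus male, was 1.21 ± 0.21 (SE; edgeR, adjusted p = 0.0512). It passed without the liver of F6849 (1.38; edgeR, adjusted p = 0.0408) and with DESeq2 (1.20, adjusted p = 4.88e-05). With any other liver left out it did not pass (edgeR, adjusted p of 0.105 to 0.164). Monax4B007940 had the reverse order. Its female livers were at 8070, 5118 and 4757 and its male livers at 12901, 25511 and 21937, with a log2 difference of -1.72 ± 0.31 (SE; edgeR, adjusted p = 0.0580; DESeq2, adjusted p = 1.04e-05). For Monax4B016139, described above, the difference was -3.03 ± 0.56 (SE; edgeR, adjusted p = 0.0587).

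In kidney 0 of the 65 genes passed between females and males (edgeR's quasi-likelihood test, false discovery rate of 0.05), as did 0.0% of the 20520 genes tested. At an unadjusted p under 0.05 there were 13 (20.0%, against 8.01% of all genes), 8 higher in females and 5 in males. DESeq2 called 6 genes (9.23%, against 2.57%), 4 higher in females and 2 in males. These shares were not tested against those of all genes, which include genes below the level asked of the set. Both female kidneys were in lane L003 and the male kidneys in L005, L001 and L006, and sex and lane cannot be told apart here either.

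The lowest p values in kidney belonged to the 2 genes with the highest scores. Monax4B040841 had 14550 and 18770 in the female kidneys and 6899, 9221 and 8329 in the male kidneys. The log2 difference was 1.06 ± 0.18 (SE; edgeR, adjusted p = 0.447; DESeq2, adjusted p = 0.000526). Its livers did not separate, with females at 52527, 9683 and 23843 and males at 19966, 22987 and 33217. Monax4B007480 had 102296 and 67670 in the female kidneys and 40337, 32811 and 39053 in the male kidneys, a difference of 1.21 ± 0.23 (SE; edgeR, adjusted p = 0.513; DESeq2, adjusted p = 0.000400). In its livers the females had 88763, 86946 and 71785 and the males 86811, 128135 and 123137, which overlap.

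Without a test, every female liver was above every male liver by normalised count for 4 genes of the set (6.15%, against 11.2% of all genes tested). Every male liver was above every female liver for 15 (23.1%, against 13.0%). In kidney every female was above every male for 11 (16.9%, against 11.9%) and every male above every female for 7 (10.8%, against 13.3%). The same order without overlap in both organs was found for 3 genes, named here after their values were seen. How many of all genes have this order was not counted, so nothing is read from the number. Females were above males for Monax4B023498 and Monax4B035220 and males above females for Monax4B038182. In Monax4B023498 the female livers were at 13340, 10030 and 13835 and the male livers at 10022, 8708 and 5580, while the female kidneys were at 12435 and 9626 and the male kidneys at 5733, 9121 and 6702. The lowest female liver was only just above the highest male liver.

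**Figure D5:**
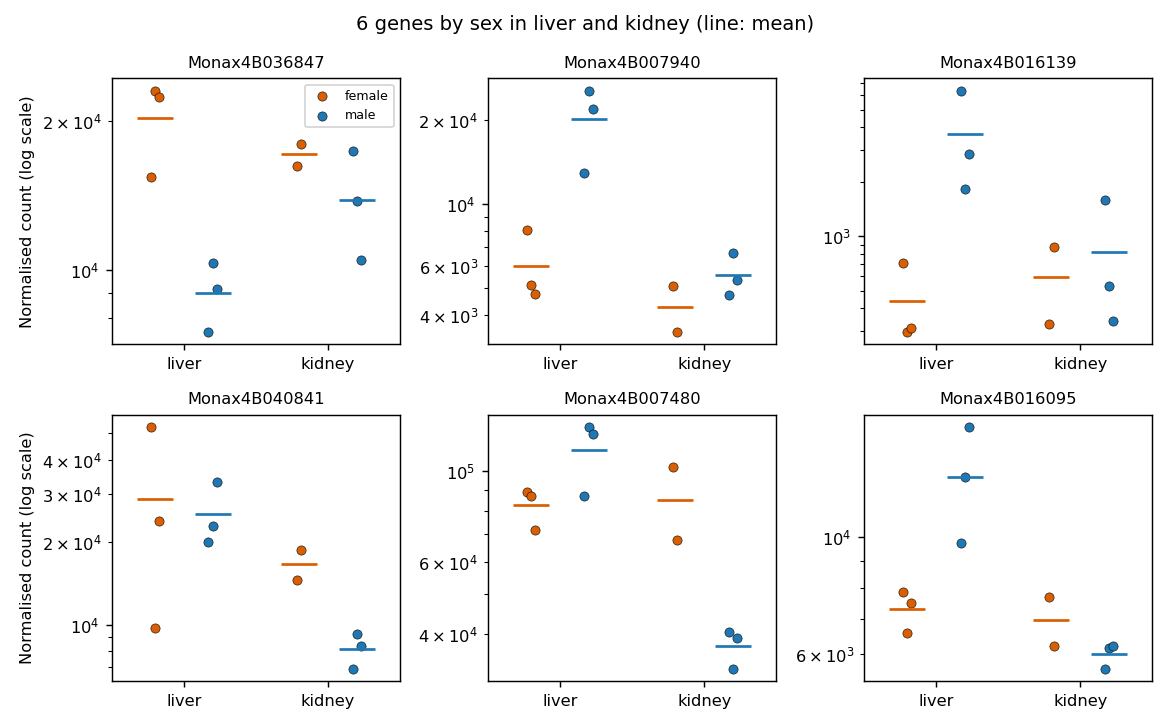
Normalised counts (log scale, a separate range in each panel) of 6 genes in the liver and kidney of females (orange) and males (blue), 1 point per library, with a line at the mean of each group. In liver Monax4B036847 is higher in the 3 females and Monax4B007940 and Monax4B016139 in the 3 males, in kidney Monax4B040841 and Monax4B007480 are higher in the 2 females, and in Monax4B016095 the order of the sexes is opposite in the 2 organs.

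Whether the sex difference differed between liver and kidney was tested as an interaction over the 11 libraries. This fit did not pair the liver and kidney of an animal. None of the genes passed (edgeR's quasi-likelihood test, 0 of 65, against 0.0% of the 21094 genes tested). At an unadjusted p under 0.05 there were 12 genes (18.5%, against 10.2%), and DESeq2 called 3 (4.62%, against 2.54%). These shares too were not tested against those of all genes. The lowest p was that of Monax4B007480, with an interaction of -1.62 ± 0.33 (log2 sex difference in liver minus that in kidney ± SE; edgeR, adjusted p = 0.145; DESeq2, adjusted p = 0.000338). Monax4B016095 followed with -1.04 ± 0.26 (SE; edgeR, adjusted p = 0.239; DESeq2, adjusted p = 0.0312). Its female livers were at 7877, 6569 and 7501, below the male livers at 9768, 13053 and 16200. Its female kidneys were at 7719 and 6220 and its male kidneys at 5625, 6149 and 6217, so that the lower female kidney was only just above the highest male kidney. With the animal as a block the interactions were -1.50 for Monax4B007480 and -1.03 for Monax4B016095 (edgeR, adjusted p = 0.351 and 0.295).

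To set the number of genes beside those of other pairs of tissues, the same rule was run on them. This was added after the data had been seen. Over all 20 libraries liver and kidney gave 65 genes, liver and spleen 8 and kidney and spleen 1. These numbers are a description, since the high groups had 10 or 11 libraries and pairs of single libraries were not set beside them. Within F6849, with 1 library for each of 5 tissues, liver and kidney gave 234 genes, 63 of the 65 among them, and the other 9 pairs 42 to 132. Within F9150 they gave 125 genes, 56 of the 65 among them, while kidney and pancreas gave 153, spleen and thymus 120, liver and thymus 114 and pancreas and thymus, the lowest, 46. Liver and kidney thus shared the most genes in F6849 and not in F9150, whose remaining tissues were others. By their choice the 65 genes meet the limits on score and level within any animal. Only the limit on the ratio could remove any of them, so their presence in these lists is no test.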

How the data were processed

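Per the study's methods, polyA libraries were sequenced as read pairs of 125 cycles, mapped to the woodchuck assembly with the gem-tools rna-mapper 1.6.1, and quantified with gemtools 1.7.1 on the Monax4B annotation. The authors deposited raw read counts per gene. Even values make up 85.1% to 86.5% of the nonzero counts of a library, so both reads of a pair seem to be counted, and Wilson intervals are too narrow for that reason too. The column headers of the count table gave the lanes, and the animal names the sexes.

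The 65 genes and all comparisons were chosen with earlier results of these data known. Size factors and the rule were computed with Python 3.11.15. Tests were run in R 4.3.3 on all genes kept by filterByExpr with edgeR 4.0.16 (TMM factors, robust glmQLFit, glmQLFTest) and limma 3.58.1, with Benjamini-Hochberg adjustment over all genes tested. Liver and kidney were compared in 1 fit with spleen, and the sexes within each organ. The scripts were tested on simulated data with known changes. Within an organ each library is 1 animal, so that p-values measure the spread between animals. Libraries are paired by the animal named in the labels. The r of paired organs, given above, was positive in all 5 animals. In F9150 it was 0.0380, below the r of its liver with the kidneys of F6849 (0.103) and M4091 (0.0982).

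The genes named are at most 2 per item and direction: the highest and lowest scores kept, the highest not kept, the extreme ratios, the highest means, the smallest span, the largest SD in each organ, and the lowest p of each comparison by sex, since none passed. Genes just outside the limits, Monax4B016139 in the comparison by sex, and genes in the same order in both organs were chosen after their values were seen. Alternatives were DESeq2 1.42.0, other factors (RLE, or library totals alone), no filter, other samples in the fit, the observation weights of edgeR, the animal as a block, other limits of the rule and each library left out. The lane as a covariate, other pairs of tissues and CPM for the next tissue were added after seeing the data.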

Additional observations from a re-analysis of the deposited data

Results flagged for a closer look

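Among the named genes, 4 had a library far from the rest of its organ by Dixon's test at the 95% level, which chance alone gives in about 1 of 20 groups; 44 groups of libraries were tested. Monax4B027793 had a normalised count of 2860 in the liver of M4075, against 890 to 1405 in the other livers. In kidney, Monax4B016740 had 2042 in F6849, against 624 to 963 in the others. Monax4B027868 had 183302 in the kidney of M4091, against 53332 to 82762, and Monax4B016095 had 7719 in that of F6849, against 5625 to 6220. Over all 65 genes such a library was found for 2 genes in liver and 8 in kidney, and over the 10742 genes at their level for 6.54% in each organ. In kidney the library that stood apart was the highest in M4091 for 3 genes, in F6849 for 2 and in F9150 for 1, and the lowest in M4046 and in M4075 for 1 each.

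In Monax4B016095 every male liver was above every female liver while both female kidneys were above all male kidneys. The interaction was -1.04 on the log2 scale and did not pass the threshold (edgeR, adjusted p = 0.239). Monax4B005481 and Monax4B017909, named after their values were seen, had the same opposite order, with interactions of -1.53 and -0.61 (edgeR, adjusted p = 0.357 and 0.429). How many of all genes have an opposite order was not counted. The lanes of the female and male libraries differ in both organs, and their part in these values was not tested.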

How the results depend on the processing

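The number of genes was 110 without the limit on the ratio, 64 to 98 with 1 library left out (98 without the pancreas, 78 without the thymus) and 44 to 87 under the remaining limits and factors. With library totals alone the rule gave 87 genes, of which 46 belong to the 65. Shares of all genes called were counted only for the main fits and, in the comparisons by sex, for DESeq2. The counts between liver and kidney describe the choice of genes, and nothing is read from them. On the side of liver, 31 went to 0 with library totals alone. On the side of kidney, 3 became 5 with DESeq2, 5 with RLE factors, 38 with library totals alone, 9 with only liver and kidney libraries in the fit and 6 with observation weights. With the animal as a replicate block the numbers were 31 and 4, and the interaction of sex and organ stayed at 0; with the lane as a covariate they were 23 and 3. Between females and males, 0 genes in liver became 8 with DESeq2 and 2 without the filter, and 0 to 2 with a library left out, 2 without the liver of F6849. In kidney 0 became 6 with DESeq2. For the interaction 0 became 3 with DESeq2, and 0 to 1 with a library left out, 1 without the liver of F6849. The median share of the counts went from 1.18% to 1.53% in liver and from 2.14% to 1.84% in kidney without the 10 most abundant genes of a library. The order of liver and kidney turned by CPM for Monax4B040841 (ratio of 2.34 to 0.821), Monax4B007480 (1.73 to 0.612), Monax4B013691 (2.25 to 0.794) and Monax4B027868 (2.18 to 0.777), among others. The causes of these changes were not tested. The 4 tissues with 1 library limit what is called low elsewhere, and 2 female kidneys limit the comparison by sex.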
